A study of Rattus norvegicus with 8 samples.

Results

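The miR-34 family comprises the mature products of 5 rat hairpins, from which the array reads rno-miR-34a, rno-miR-34b, rno-miR-34c, their miR-449 relatives and the opposite arms. It was followed in pancreatic islets of adult and P10 Sprague Dawley rats. Members were the non-control features that the array names as a product of the hairpins miR-34a, miR-34b, miR-34c, miR-449a or miR-449c, from either arm. The names below leave out the species prefix rno. Members came to 10 of the 677 miRNAs on the array, read by 24 probes and 200 features per array. Adult islets came from males 3 months old (4 arrays) and P10 islets from rats 10 days old (4 arrays), and the labels describe all of these rats as controls. Total RNA of each sample was labelled with cyanine 3 and hybridised to a 1-colour Agilent miRNA array. The series title gives beta-cell maturation as its subject. Arrays are labelled as biological replicates, with no number of animals behind each, so p-values measure only the spread between these samples. No sex is given for the P10 rats. All 8 arrays lay on 1 slide, adult in one column and P10 in the other, so age and slide column cannot be told apart.

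MicroRNAs pair with messenger RNAs mainly through the seed near their 5′ end and lower the output of their targets. The miR-34 genes are known as transcriptional targets of the tumour suppressor p53, and their products repress cell cycle and survival genes such as cyclin-dependent kinases, Myc and Bcl2. In beta cells, the insulin-secreting cells of the islet, miR-34a is known for its induction by palmitate and for its link to apoptosis and reduced secretion. miR-34b, miR-34c and the miR-449 products are best known from multiciliated epithelia and testis.

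The 5′ arm products of the 5 hairpins carry the same seed, and are printed to show what the array has to tell apart. Capitals mark the seed (bases 2 to 8). Names without an arm on the array were taken as the 5′ product and names with an asterisk as the 3′ product. The sequences are from RefSeq (GRCr8), where all 10 products were found.
rno-miR-34a-5p: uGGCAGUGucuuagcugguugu
rno-miR-34b-5p: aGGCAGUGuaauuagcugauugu
rno-miR-34c-5p: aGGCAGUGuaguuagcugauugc
rno-miR-449a-5p: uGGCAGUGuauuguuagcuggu
rno-miR-449c-5p: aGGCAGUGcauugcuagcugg
The seed GGCAGUG occurred in 5 of the 693 mature rat miRNAs of the table (0.722%), which were these 5. Aligned from the 5′ end without gaps, miR-34b and miR-34c matched at 21 of 23 positions and miR-449a and miR-449c at 18 of 21. miR-34a matched miR-449a at 15 of 22 positions and miR-34b and miR-34c at 11 of 22 each. Counts without gaps miss stretches shared at shifted positions, such as uuagcug, which miR-34a, miR-34b, miR-34c and miR-449a all hold. They therefore understate how alike miR-34a is to the others. Probes for miR-34b and miR-34c read nearly identical RNAs. How far a probe of any of these products, miR-34a included, reads another one was not tested.

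The 3′ arm products did not share this seed, and are shown because their probes gave no signal above background on any array.
rno-miR-34a-3p: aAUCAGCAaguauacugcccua
rno-miR-34b-3p: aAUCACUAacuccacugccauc
rno-miR-34c-3p: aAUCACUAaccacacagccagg
rno-miR-449a-3p: cAGCUAACaugcaacugcucuc
rno-miR-449c-3p: uAGAACUUcgucccaac
Only the miR-34b and miR-34c products among these 5 had the same bases 2 to 8.

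The hairpins lie at 3 places in the GRCr8 assembly. Mir34a is at chr5:165815952-165816053 on the plus strand, within the long non-coding RNA gene LOC103692514 and between H6pd and Gpr157. Mir34b (chr8:60306609-60306692) and Mir34c (chr8:60306091-60306167) are on the minus strand, 441 bases apart, and overlap the protein-coding gene Hoatz. Mir449c (chr2:46402375-46402473) and Mir449a (chr2:46403910-46404000) are on the plus strand, 1436 bases apart, within the long non-coding RNA gene LOC134485839.

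Of the 10 products, miR-34a was the member above background on all 8 arrays. With arrays scaled to their bright probes, its difference between adult and P10 islets was within the spread between arrays. Without scaling or with spike-in scaling it was called higher in adult, and with array weights in the scaling to bright probes it was called lower. miR-34b was above background on 1 adult and 2 P10 arrays, and the other 8 products were at background on all 8 arrays. A product counted as above background on an array where the majority of the used features of a probe carried the scanner's call of well above background. By the scanner's own detection call, and likewise above the mean plus 3 SD of the array's negative control features, 7 products were at background. By both of these rules miR-34b was above it on 3 adult and 2 P10 arrays, and miR-34c on 0 adult and 2 P10 arrays.

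**Figure D1:**
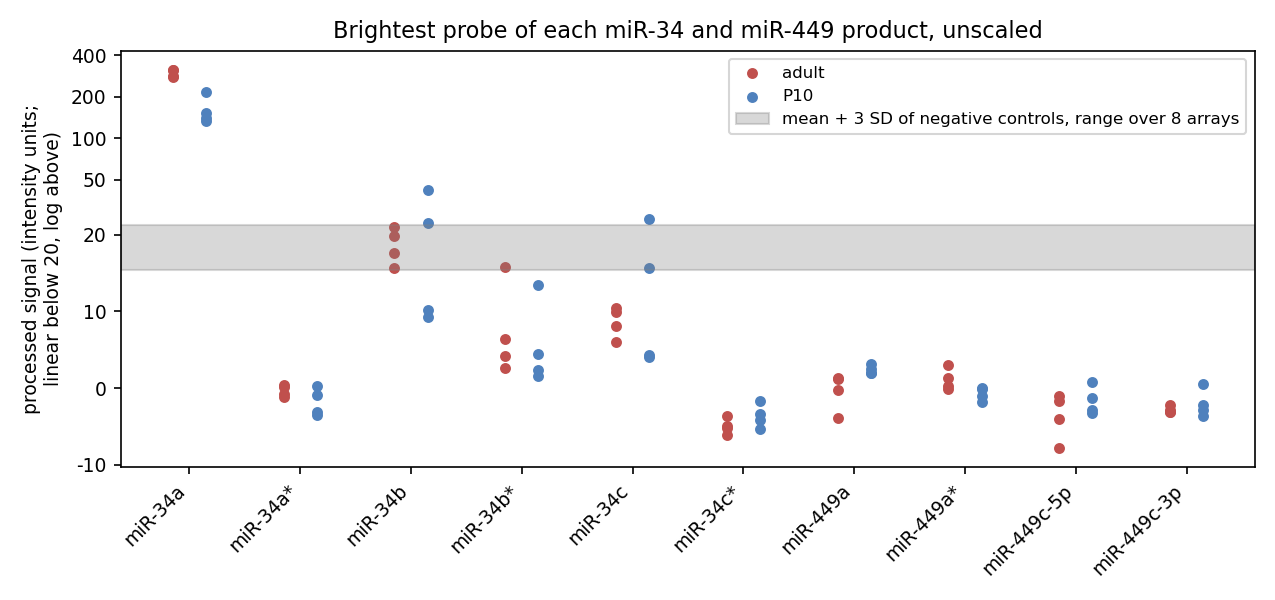
Unscaled, background-subtracted signal (intensity units, linear below 20 and log above) of the brightest probe of each of the 10 products, 1 point per array with adult left of P10. The grey band is the range over the 8 arrays of the mean plus 3 SD of negative control features, 15.4 to 23.6. miR-34a lies far above it. miR-34b runs from under it (9.30 on P10 replicate 2) to above it (41.9 on P10 replicate 4, where the limit was 20.6). The 2 highest P10 values of miR-34c, 15.7 and 26.1, lie in it and just above it. The miR-34b* value of 15.9 on adult replicate 2 also lies in the band, but under the limit of its own array (23.6).

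miR-34b, the product best known from ciliated cells together with miR-34c, gave on its brighter probe a background-subtracted signal of 22.7, 15.6, 19.9 and 17.6 on adult replicates 1 to 4. The signals on P10 replicates 1 to 4 were 10.2, 9.30, 24.4 and 41.9. In these unscaled signals P10 replicates 3 and 4 lay above all adult arrays and P10 replicates 1 and 2 below them, so the ages overlapped. This order depended on scaling, since P10 replicates 1 and 2 were the dimmest arrays. With arrays scaled to their bright probes, every adult array and P10 replicate 2 were set to the floor of -5.51 (log2). The floor hides any order among these arrays, and it also covers adult replicate 1, which was above background. P10 replicates 1, 3 and 4 then lay at -5.26, -5.34 and -5.33. The limit set by the negative controls ranged from 15.4 to 23.6 over the 8 arrays. On adult replicate 1 the majority of features, 8 of 10, were well above background, and on adult replicate 3 it was 5 of 10, which is no majority. On P10 replicate 3 it was 9 of 9 and on P10 replicate 4 it was 8 of 10, while no feature of adult replicates 2 and 4 or P10 replicates 1 and 2 carried the call. With 3 of 8 arrays above background, miR-34b was not tested between the ages.

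miR-34c gave 9.93, 6.03, 10.5 and 8.09 on its brighter probe on adult replicates 1 to 4. The P10 arrays gave 4.37, 4.08, 15.7 and 26.1. The order of the P10 arrays in these unscaled signals was like that of miR-34b, with replicates 3 and 4 above and replicates 1 and 2 below every adult array. It was read close to background, on arrays that differed in brightness. With arrays scaled to their bright probes, miR-34c was set to the floor on every array. The floor hides any order beneath it, so none could be read after scaling. No array had the majority of features above background.

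The 7 remaining products gave no signal that any of the 3 rules placed above background. Their mean signals per probe ranged from -14.7 to 15.9 on adult arrays and from -10.5 to 13.5 on P10 arrays. The highest of these values, on both ages, belonged to miR-34b*, whose brighter probe lay between 2.62 and 15.9 on adult arrays and between 1.55 and 13.5 on P10 arrays. The 4 miR-449 products, read by 10 probes, lay between -8.89 and 2.98 on adult arrays and between -10.2 and 3.1 on P10 arrays. Signals this close to background have no usable order, and a difference between the ages could not be measured for them.

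The authors' deposited table held 311 miRNAs with 1 log2 value per array, and 3 of the 10 products were in it, miR-34a, miR-34b and miR-34c. Its miR-34b values were 4.78, 4.44, 4.58 and 4.65 in adult and 4.99, 4.65, 5.27 and 5.23 in P10, which overlapped. Its miR-34c values were 3.97, 3.73, 3.86 and 3.76 in adult and 4.25, 4.24, 4.56 and 4.47 in P10. These did not overlap, with a mean difference of -0.55 (adult minus P10). Of the 311 miRNAs in it, 61 (19.6%) were lower in adult without overlap, and miR-34c had no adult array above background by any of the 3 rules. The sign of this difference thus involves adult signals at background.

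miR-34a was read by 2 probes. Before any scaling between arrays, its brighter probe gave 282, 311, 314 and 279.8 on adult replicates 1 to 4, and 154, 134, 140 and 214.6 on P10 replicates 1 to 4. All adult arrays were brighter than all P10 arrays. On the log2 scale the means were 8.21 ± 0.09 in adult and 7.30 ± 0.31 in P10 (SD, n = 4 each), which is 1.88-fold (two-sided exact permutation p = 0.0286, the lowest that the 70 ways to split 8 arrays can give). Of the 238 miRNAs tested on this array, 68 (28.6%) were likewise higher in adult without overlap before scaling.

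The whole arrays differed in brightness as well. Among the 278 probes above background on all 8 arrays, the 75th percentile signal was 1354, 1401, 1677 and 1284 on adult replicates 1 to 4, and 388, 440, 989 and 1690 on P10 replicates 1 to 4. P10 replicates 1 and 2 were the dimmest arrays, and P10 replicate 4 was brighter than any adult array. On the log2 scale this percentile was 0.96 higher in adult (two-sided exact permutation p = 0.143). Each array was therefore divided by its own percentile, and differences below are relative to the bulk of measured miRNAs.

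After this scaling miR-34a lay at -2.26, -2.17, -2.42 and -2.20 on adult replicates 1 to 4, as log2 of the signal relative to the 75th percentile. The P10 replicates lay at -1.34, -1.72, -2.82 and -2.98. The adult arrays sat within 0.25 of each other, while the P10 arrays spanned 1.64 and enclosed every adult value, with P10 replicates 1 and 2 above and P10 replicates 3 and 4 below. The means were -2.26 ± 0.11 in adult and -2.21 ± 0.81 in P10 (SD, n = 4 each). The difference was -0.05 ± 0.37 (log2, adult minus P10, ± SE), with a 95% interval of -0.90 to 0.80 and a limma adjusted p of 0.942. An exact permutation test over the arrays gave a two-sided p of 0.914. The interval leaves room for a difference in either direction, so equal levels were not shown. In bulk islets, fewer cells of a type and less RNA per cell cannot be told apart.

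**Figure D2:**
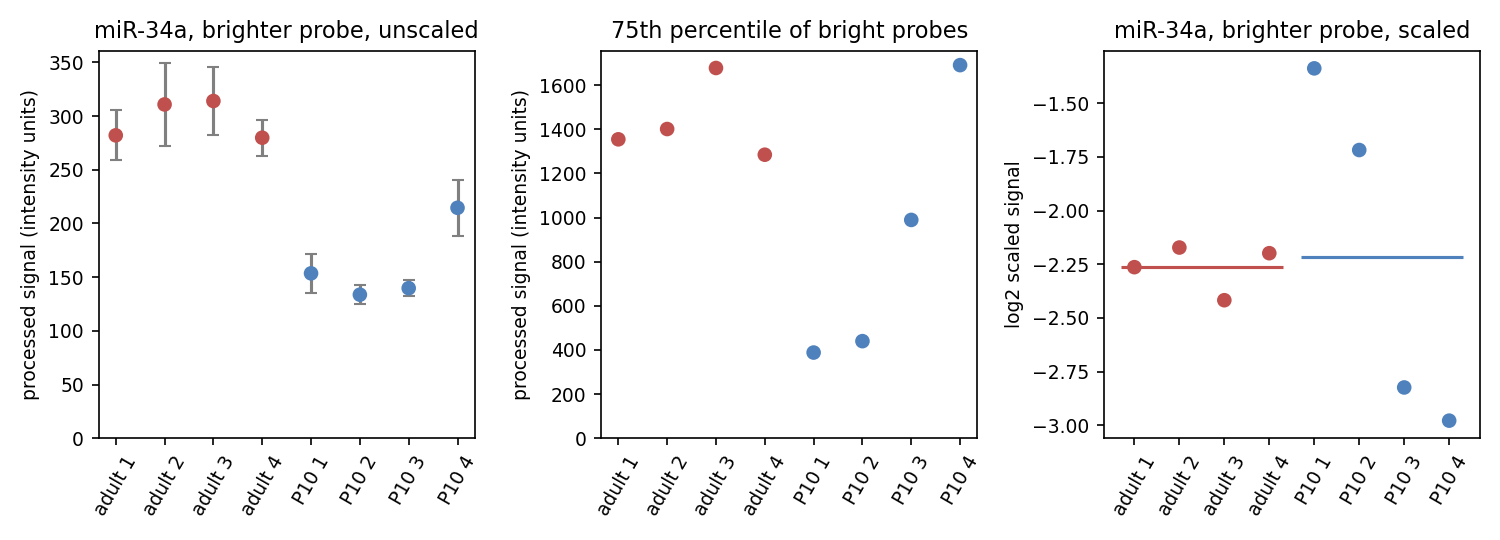
miR-34a on each array (adult left of P10), with its brighter probe before scaling (mean and SD over features, intensity units) in the left panel, the 75th percentile signal of bright probes in the middle, and log2 of their quotient with the mean of each age as a line on the right. Before scaling every adult array is above every P10 array, and after it P10 replicates 1 and 2 lie above and 3 and 4 below the adult values.

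The second, dimmer miR-34a probe placed the P10 arrays in the same way. Its scaled log2 values were -3.51, -3.59, -3.77 and -3.49 on adult replicates 1 to 4, and -2.45, -2.79, -4.01 and -4.16 on P10 replicates 1 to 4. The difference was -0.24 ± 0.39 (SE), with a limma adjusted p of 0.649. Features of a probe varied little within an array, with coefficients of variation of 5.43% to 12.5% on the brighter probe and 5.41% to 11.3% on the dimmer one. After scaling, P10 replicates 1 and 2 had a mean of -1.53 and replicates 3 and 4 one of -2.90 on the brighter probe, a 2.59-fold gap that the unscaled signals above did not show.

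The 2 miR-34a probes did not keep 1 ratio between the ages. The dimmer probe gave 42.0%, 37.5%, 39.2% and 40.7% of the signal of the brighter one on adult replicates 1 to 4, and 46.3%, 47.7%, 44.0% and 44.1% on P10 replicates 1 to 4. The log2 ratio was -1.33 ± 0.07 in adult and -1.14 ± 0.06 in P10 (SD, n = 4 each), and the ages did not overlap (two-sided exact permutation p = 0.0286, the lowest possible here). The ratio is taken within an array, so no scaling between arrays enters it. Of 112 miRNAs with 2 such probes, 40 (35.7%) also had ratios whose ages did not overlap, and 89 had a more negative ratio in adult, with a median difference of -0.08. For miR-34a the difference was -0.19 here and -0.26 to -0.16 over 10 alternatives chosen after seeing the data.

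Against the rest of the array, 113 of 238 tested miRNAs (47.5%) were called, meaning a limma p adjusted by Benjamini-Hochberg of less than 0.05, with 65 higher (27.3%) and 48 lower (20.2%) in adult. Scaling moved this split, which was 90 to 34 with the percentile over all probes, 58 to 17 without scaling and 59 to 9 with spike-in scaling. More were lower than higher with scaling to total signal (30 to 85), after normexp (33 to 46) and with cyclic loess run over all probes (12 to 22). miR-34a was not among those called, and its difference stood at percentile 45.8 of all tested. Its SD stood at percentile 47.1 in adult and at percentile 80.3 in P10, where the median SDs were 0.11 in adult and 0.38 in P10.

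The split of the P10 replicates was seen for many miRNAs and depended on scaling. P10 replicates 1 and 2 were both above replicates 3 and 4 for miR-34a in 8 of 10 scalings, but not without scaling (7.26, 7.06, 7.13 and 7.75 on P10 replicates 1 to 4, log2) or with spike-in scaling (-5.84, -6.13, -5.88 and -5.32). All adult arrays lay between the pairs in 5 of 10. In the scaling to bright probes, for 95 of 238 miRNAs (39.9%) P10 replicates 1 and 2 were both above replicates 3 and 4, and for 69 (29.0%) both below. miR-34a was also 1 of 20 miRNAs (8.40%) whose adult arrays all lay between the upper pair, P10 replicates 1 and 2, and the lower pair. The marker lists differed in how they ran across these pairs. The summed level of the acinar markers on the array, miR-216a and miR-217, was -2.36 to -1.33 (log2) in adult. It was -0.35 and -0.66 on P10 replicates 1 and 2, and -4.09 and -4.51 on P10 replicates 3 and 4. On replicate 4 both markers were at the floor, and on replicate 3 miR-217 was, so the size of this split is set by the floor. The summed islet markers (miR-375, miR-7a, miR-7b and miR-184) stood at 5.41 to 5.60 in adult, at 3.54 and 4.15 on P10 replicates 1 and 2 and at 4.64 and 4.66 on replicates 3 and 4. Of these 4, miR-375, miR-7a and miR-7b were above background on all 8 arrays. The neuronal markers miR-124 and miR-9 were at background on every array. The sums of the islet, endothelial, mesenchymal and leukocyte markers ran opposite to miR-34a, with P10 replicates 1 and 2 below replicates 3 and 4, but not all members did. miR-375, miR-7a, miR-7b, miR-126, miR-126*, miR-143 and miR-145 split this way. The islet miR-184 did not, being at the floor on every array except P10 replicate 4. The mesenchymal miR-199a-3p, miR-199a-5p and miR-214 did not, and were lowest among the P10 arrays on replicate 4 (0.05, -0.95 and -1.94). No single leukocyte marker split this way (miR-142-3p lay at -2.22, -1.67, -2.07 and 1.36 on P10 replicates 1 to 4). For the endothelial markers the range was 1.55 to 1.73 in adult, with 1.23 and 1.5 on P10 replicates 1 and 2 and 2.15 and 2.23 on replicates 3 and 4. The mesenchymal sum was 2.35 to 2.83 in adult, 2.09 and 2.26 on P10 replicates 1 and 2 and 2.61 and 2.88 on replicates 3 and 4. The leukocyte sum was 0.31 to 0.66 in adult, 0.08 and -0.47 on P10 replicates 1 and 2 and 0.51 and 1.87 on replicates 3 and 4. The erythroid sum, -2.0 to -0.62 in adult and -2.77, -2.35, -1.98 and -2.71 on P10 replicates 1 to 4, did not split by these pairs. The part of other cell types' RNA or of array brightness in the miR-34a values was not tested.

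With P10 replicates 3 and 4 alone against the 4 adult arrays, miR-34a was called higher in adult, by 0.64 ± 0.11 (SE, limma adjusted p = 0.00273). With P10 replicates 1 and 2 alone it was called lower in adult, with a difference of -0.73 ± 0.13 (limma adjusted p = 0.00304). Both subsets were formed with the P10 values known, so these calls describe how far the answer depends on the P10 arrays used.

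The sign of miR-34a followed the scaling of the arrays. Over 10 ways of scaling, its difference was positive (higher in adult) in 6 and negative in 4, and ranged from -0.47 to 1.00. Some of these scalings are close to each other, so the count is no measure of the sign. miR-34a passed the limma threshold in 2 of the 10, higher in adult both times. These were no scaling (0.91, adjusted p = 0.0337) and scaling to spike-in probes (1.00, adjusted p = 0.0396). With array weights in the scaling to bright probes it was called lower (-0.51, limma adjusted p = 0.029). The difference was 0.42 with the 75th percentile over all probes (adjusted p = 0.134), 0.11 with quantile normalization, 0.09 in the authors' deposited table and 0.07 with the median of bright probes. It was -0.47 with the total signal (adjusted p = 0.259), -0.33 with cyclic loess run over all probes (adjusted p = 0.343) and -0.0042 with cyclic loess on bright probes. The authors' deposited table held 7.89, 7.89, 7.68 and 7.82 in adult and 8.56, 8.16, 7.20 and 6.99 in P10, with the P10 replicates again on both sides of the adult values.

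The bulk of the array shifted with the scaling too. The median difference of all tested miRNAs ranged from -0.41 to 1.03 over the same 10 scalings. It was 0.94 without scaling and 1.03 with spike-in scaling, against 0.91 and 1.00 for miR-34a. The signs parted with cyclic loess, where the median was 0.15 over all probes and 0.24 on bright probes while miR-34a was negative in both. In all 10 scalings miR-34a lay below this median (miR-34a minus median between -0.48 and -0.00053), and between percentiles 26.5 and 50 of the tested miRNAs. The 8 spike-in probes differed by -0.09 (log2) between the ages. Their geometric mean signal was 7723, 8051, 7744 and 9382 on adult replicates 1 to 4 and 8813, 9346, 8217 and 8568 on P10 replicates 1 to 4. Which scaling is right for these arrays was not tested.

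**Figure D3:**
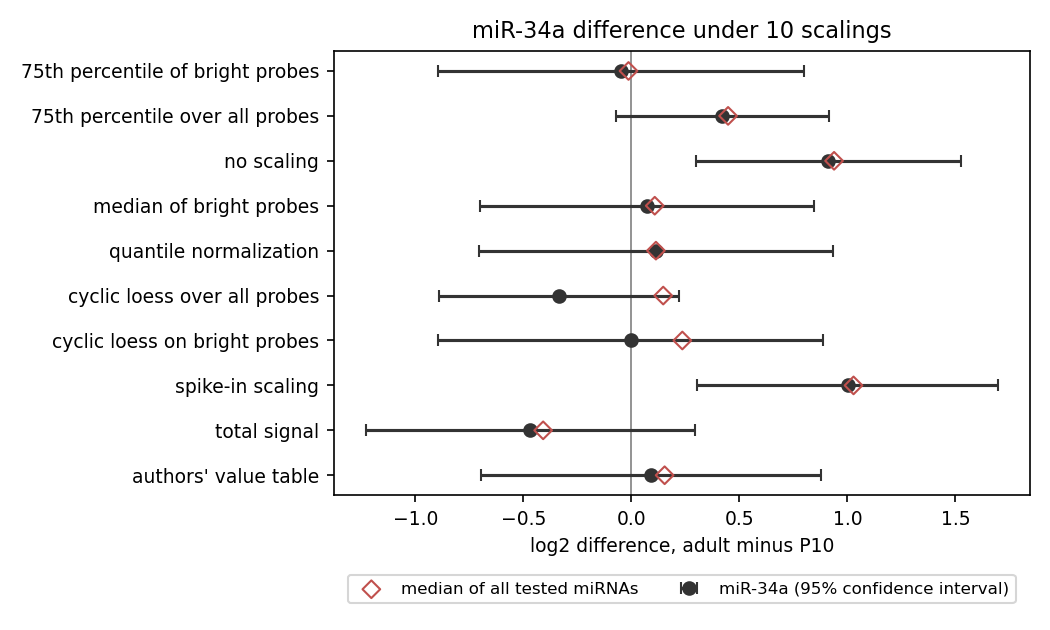
Difference of miR-34a (filled points, log2, adult minus P10, with 95% intervals) and median difference of all tested miRNAs (open diamonds) under each of 10 scalings. The miR-34a difference runs from -0.47 with total signal to 1.00 under spike-in scaling, and it is negative while the median is positive under both forms of cyclic loess.

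The 5 tested miRNAs with the highest Pearson correlation with miR-34a over the 8 arrays were miR-99a (r = 0.97), miR-30a (0.96), miR-30c-2* (0.96), miR-216b-5p (0.95) and miR-216a (0.95). Of 237 other miRNAs, 16 had a correlation above 0.9, and the median was near 0. These 8 points share the ages, the P10 pairs and the scaling, so the correlations are descriptions. miR-99a, a relative of miR-100, lay at 1.07, 0.83, 0.91 and 1.03 in adult and at 2.08, 1.75, 0.43 and 0.39 in P10. miR-216a, an acinar marker, lay at -1.74, -2.40, -2.77 and -2.43 in adult and at -0.60, -0.91, -4.77 and -5.51 in P10, where the last value is the floor. Both had the adult arrays between the P10 pairs, as miR-34a did, which largely follows from choosing them by correlation with it. Floor values also entered the correlations of miR-216b-5p, on P10 replicates 3 and 4, and of miR-30c-2*, on P10 replicate 4.

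None of the 5 was called between the ages. They were picked for likeness to miR-34a, itself not called, on the same arrays, so this is no separate result. Their differences were -0.21 for miR-99a (limma adjusted p = 0.71), 0.07 for miR-30a (adjusted p = 0.837) and -0.24 for miR-30c-2* (adjusted p = 0.593). They were -0.47 for miR-216b-5p (adjusted p = 0.658) and 0.61 for miR-216a (adjusted p = 0.703). The likeness depended on scaling. Over the 10 scalings the correlation of miR-99a with miR-34a stayed between 0.78 and 0.98 and that of miR-30a between 0.73 and 0.97. For miR-30c-2* it ran from -0.28 to 0.97, for miR-216b-5p from 0.25 to 0.96 and for miR-216a from 0.38 to 0.97.

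**Figure D4:**
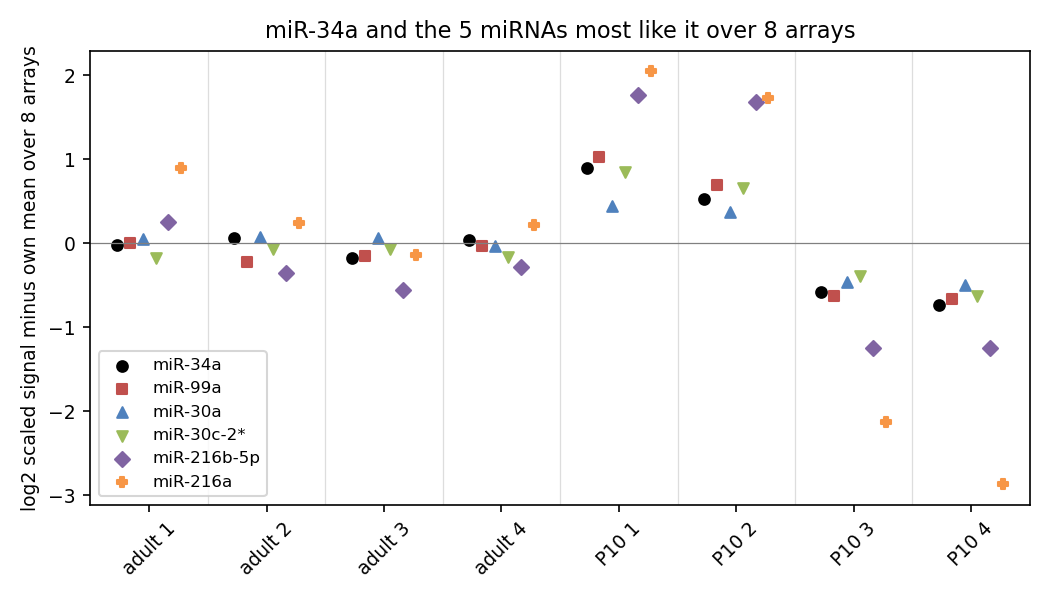
Log2 scaled signal of miR-34a and of the 5 miRNAs most correlated with it, each minus its own mean over the 8 arrays (adult left of P10). The adult arrays cluster near 0 while P10 replicates 1 and 2 lie above and replicates 3 and 4 below, most widely for miR-216a.

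The miR-34 family shares its place downstream of p53 with other miRNAs that are known from human and mouse cells to be induced by p53 or processed under its control. Of 12 such miRNAs listed, 11 were matched by name and tested, and miR-15a was not analysed here. Of the 11, 9 were called (81.8%, against 47.5% of all tested miRNAs), 4 higher and 5 lower in adult, while miR-34a was not called. The median difference of the list was 0.47, against -0.01 for all tested miRNAs. This median was positive in 6 and negative in 4 of the 10 scalings, from -0.35 with quantile normalization to 1.21 with spike-ins, and it was -0.27 after normexp. The calls thus went both ways, and no test of the list was made.

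miR-15b and miR-16, known to restrain cyclins and Bcl2, fell. Other miRNAs of the same seed group are not in this list and did not all do so, since miR-195 rose by 1.36 (limma adjusted p = 0.000815). miR-15b lay at -0.18, -0.21, -0.24 and -0.42 in adult and at 1.00, 1.07, 0.69 and 0.68 in P10, without overlap. It fell by 1.12 ± 0.13 (log2, SE, limma adjusted p = 0.000247), and it was lower in adult in all 10 scalings and called in 8. miR-16 lay at 2.12, 2.05, 1.99 and 1.96 in adult and at 2.27, 2.39, 2.45 and 2.31 in P10. It fell by 0.33 ± 0.09 (limma adjusted p = 0.0242), but the sign was positive in 3 of 10 scalings and the call held in 6.

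The p53-linked miR-192, miR-194 and miR-215, known as gut and kidney epithelial miRNAs, fell too. miR-192 fell by 2.78 and was called in 7 of 10 scalings, but not without scaling, with spike-in scaling or with cyclic loess run over all probes (-1.46). miR-194 fell by 3.41 and was called in 9 of 10, the exception being spike-ins (-2.36), and miR-215 was at the floor on all 4 adult arrays, which leaves its size unmeasured. miR-22, known to promote cell cycle exit, rose by 1.68 and was called higher in 9 of 10 scalings. The epithelial pair miR-200c (0.87) and miR-141 (0.47) rose, but miR-141 was negative in 4 of 10 scalings and called lower in 1 of them. miR-143, a smooth muscle miRNA processed under p53, rose by 0.93 with a limma adjusted p of 0.0485, and this call held in 3 of 10 scalings. Its partner miR-145 had a difference of 0.79 (limma adjusted p = 0.0817) and miR-107 one of 0.47 (limma adjusted p = 0.0582), and neither passed. In this list 3 of 11 had P10 replicates 1 and 2 above replicates 3 and 4, the order seen for miR-34a.

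**Figure D5:**
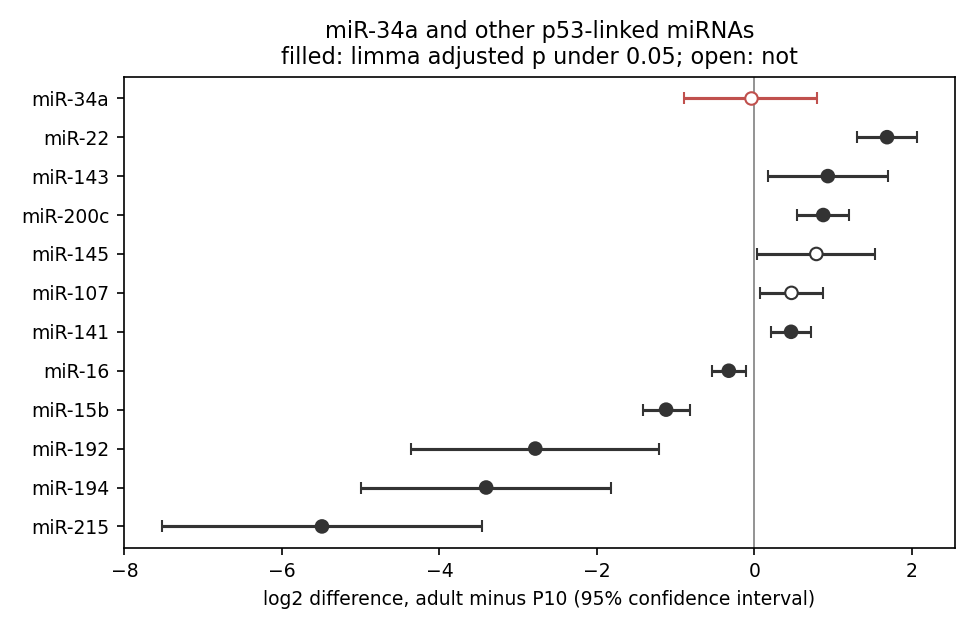
Difference (log2, adult minus P10, with its 95% interval) of miR-34a and the 11 tested p53-linked miRNAs, where filled points passed the limma threshold. miR-34a lies at -0.05 with an interval across 0, and miR-215 was at the floor on all adult arrays, so its point is no measure of size.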

How the data were processed

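Per the labels, total RNA of islets from 4 adult and 4 P10 rat samples was hybridised to 1-colour arrays. Per the file headers, Agilent Feature Extraction 10.7.3.1 produced the deposited intensity values, which are background-subtracted within each array, so they can be negative. The scanner's per-feature flags, also deposited, are other values than signals and were used as calls. The authors' deposited log2 table shares 1 set of sorted values between columns, as after quantile normalization. Its normalization was not given in the sources used here.

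Features marked as population or non-uniformity outliers were left out (2.34% to 3.65% per array) and none was saturated. The remaining features were averaged per probe. As the scale of an array served its 75th percentile signal among the 278 probes that were well above background throughout. Lower values were set to 1 floor for all arrays (-5.51 on the log2 scale, from the 1st percentile of each array's probes above background, taking the median of the 8). Each miRNA was represented by its brightest probe, and the 238 miRNAs above background on 4 or more arrays entered the test. Of the 10 products 1 passed this filter and 9 did not.

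The test was limma 3.58.1 (R 4.3.3) with lmFit and eBayes, as adult minus P10 without a block, adjusted by Benjamini-Hochberg over all tested miRNAs at 0.05. The limma step was tested on simulated data. Single values were compared with exact two-sided permutation tests. The number of arrays limits the precision. The design build of the array is rn4, so coordinates were taken from RefSeq on GRCr8 instead. The planned normexp correction used an offset of 50.

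Named miRNAs were all products of the 5 hairpins, the p53-linked list, the 5 tested miRNAs most correlated with miR-34a, and cell type markers as sums. miR-216b was listed as an acinar marker, but the array names it miR-216b-5p, so it was not in the sum. The members and lists were chosen with earlier results of these data known. Alternatives covered scaling, background correction, probe choice, filter, floor, detection rule, array weights, variance model, replicate block, the deposited table and leaving out each array. P10 replicates 1 and 2 alone, and the alternatives of the probe gap, were added after seeing the data.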

Additional observations from a re-analysis of the deposited data

Results flagged for a closer look

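Of 33 groups of 4 arrays checked, over 17 miRNAs, 1 held an array far from the other 3. This was miR-143 in adult islets, where replicate 4 lay at 2.13 (log2) and the other adult arrays reached up to 2.66. The gap made up 0.872 of the range of the group. Chance gives such a gap in about 1 of 20 groups.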

How the results depend on the processing

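Over 30 alternatives the difference of miR-34a was positive in 10 and negative in 20, and it was called higher in adult in 3 and lower in 2. The alternatives of floor, filter, variance model and replicate block left the difference itself at -0.05. They add to the negative count without a new value, so the count is no measure of the sign. Its sign turned with the percentile over all probes (0.42), no scaling (0.91), the median of bright probes (0.073), quantile normalization (0.11), spike-in scaling (1.00), the authors' table (0.092) and P10 replicates 3 and 4 alone (0.64). It also turned without adult replicate 3 (0.0031), P10 replicate 1 (0.24) or P10 replicate 2 (0.12), in a range of -0.30 to 0.24 over the arrays left out. It was called lower with array weights (-0.51) and with P10 replicates 1 and 2 alone (-0.73). The cause was not tested. The number of miRNAs called was 113 here, 75 without scaling, 68 with spike-in scaling, 34 with cyclic loess over all probes, 179 with array weights and 182 with P10 replicates 1 and 2 alone, and 84 to 138 with 1 array left out. The number of p53-linked miRNAs called was 9 here, 5 without scaling and 4 each with spike-in scaling and cyclic loess over all probes, and 7 to 11 with 1 array left out. The products at background numbered 8 here and 7 by both other rules. With the replicate number as a block, miR-34a stood at -0.05 (limma adjusted p = 0.929) and 95 miRNAs were called. Deviations of same-numbered arrays correlated at 0.18, -0.09, 0.48 and -0.23. The labels name no pairing, and so few arrays cannot settle whether same-numbered samples belong together.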
